A study of Homo sapiens with 6 samples.

Results

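Amino acid transporters are the membrane carriers through which cells take up, exchange and store amino acids. The genes examined here were all rows of the count table whose symbol consists of SLC1A, SLC3A, SLC7A, SLC36A, SLC38A or SLC43A followed by digits only. There were 40 such genes among the 58735 rows, and 27 of them had enough counts to be tested. Symbols of pseudogenes, antisense genes and neighbouring genes were left out by this rule. RNA-seq had been performed on RD cells, an established cell line of embryonal rhabdomyosarcoma (ERMS). A lentivirus expressing a scrambled shRNA had been used for the 3 control samples and one expressing TAK1 shRNA # 1 for the 3 TAK1 knockdown samples. A single TAK1 construct was sequenced, so loss of TAK1 and any other action of that construct cannot be told apart. The labels do not say whether the replicates were separate transductions, so the p-values measure the spread between these samples, which may be partly technical.

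The families divide the work of amino acid supply. Sodium-coupled carriers such as the SNAT proteins (SLC38) concentrate small neutral amino acids, among them glutamine, inside the cell. Exchangers such as ASCT2 (SLC1A5) and LAT1 (SLC7A5) then trade one amino acid for another across the membrane, and LAT1 is best known for importing leucine. The light chains of the SLC7 family work only when paired with a heavy chain of the SLC3 family. Other members sit on the lysosome, where amino acid efflux is linked to activation of the growth kinase mTORC1.

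Total counts ran from 28839898 to 34469323 per sample. TAK1 mRNA (MAP3K7) was examined first, since it checks the labels. It stood at 77.9, 76.5 and 77.6 CPM (counts per 1000000 counts of the normalized library) in scrambled shRNA replicates 1, 2 and 3 and at 30.5, 33.6 and 29.9 CPM in the TAK1 knockdown replicates, a log2 fold change of -1.30 ± 0.062 (SE, edgeR, Benjamini-Hochberg adjusted p = 4.45e-14). As a check of cell identity, 7 of 9 myogenic genes were expressed, MYOD1 and DES at means of 263 and 341 CPM in control cells, while MYF5 had 0 counts in every sample. The summed myogenic genes ran from 2019 to 2042 CPM in control and from 1950 to 2066 CPM in knockdown cells, with MYOD1, MYOG and MYMK called higher and CHRNA1 lower. MYOG fell under the fold threshold, which is given below, without scrambled shRNA replicate 1 (0.24) or TAK1 shRNA replicate 1 (0.24). Markers of leukocytes summed to at most 0.352 CPM and those of endothelium to at most 3.65 CPM in any sample. Of the 6 epithelial markers, CDH1 and KRT19 had 0 counts. The summed epithelial list ran from 56.9 to 63.0 CPM in control and from 27.7 to 31.2 CPM in knockdown cells, nearly all of it KRT18, whose part in the results below was not tested. RNA here comes from whole cultures, so a lower value for a gene may stand for fewer cells that express it or for less RNA in each cell, which cannot be told apart.

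The level of a gene relative to other genes is given as CPM per kilobase of exon, with the union of all annotated exons in GENCODE 44 as the length. On this scale RD cells drew most of their transporter mRNA from few genes. SLC38A2 was highest in control cells at 71.8 ± 0.462 CPM per kilobase (SD, n = 3), followed by SLC38A1 at 67.9 ± 1.58 and SLC1A5 at 67.2 ± 0.587 CPM per kilobase. The last 2 differed by less than the spread of SLC38A1. SLC38A4 came next at 38.4 ± 1.58 CPM per kilobase, and these 4 genes held 70.0% of the summed level of all 40 members in control cells and 64.8% in TAK1 knockdown cells. SLC7A5 stood at 26.3 ± 1.52, its heavy chain partner SLC3A2 at 16.7 ± 1.18 and the cationic amino acid carrier SLC7A2 at 11.0 ± 0.387 CPM per kilobase. The other tested members lay below 10 CPM per kilobase. In knockdown cells SLC38A1 moved from the second to the third place, at 48.6 ± 1.76 CPM per kilobase, behind SLC1A5 at 60.9 ± 5.46. With the longest annotated transcript as the length, the first 4 places in control cells were the same and SLC3A2 stood above SLC7A5 there (37.6 against 27.5 CPM per kilobase), since the annotated SLC3A2 exons sum to 6392 bases and its longest transcript to 2843. In knockdown cells SLC7A5 was above SLC3A2 with either length (33.1 against 32.3 CPM per kilobase with the longest transcripts).

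**Figure D1:**
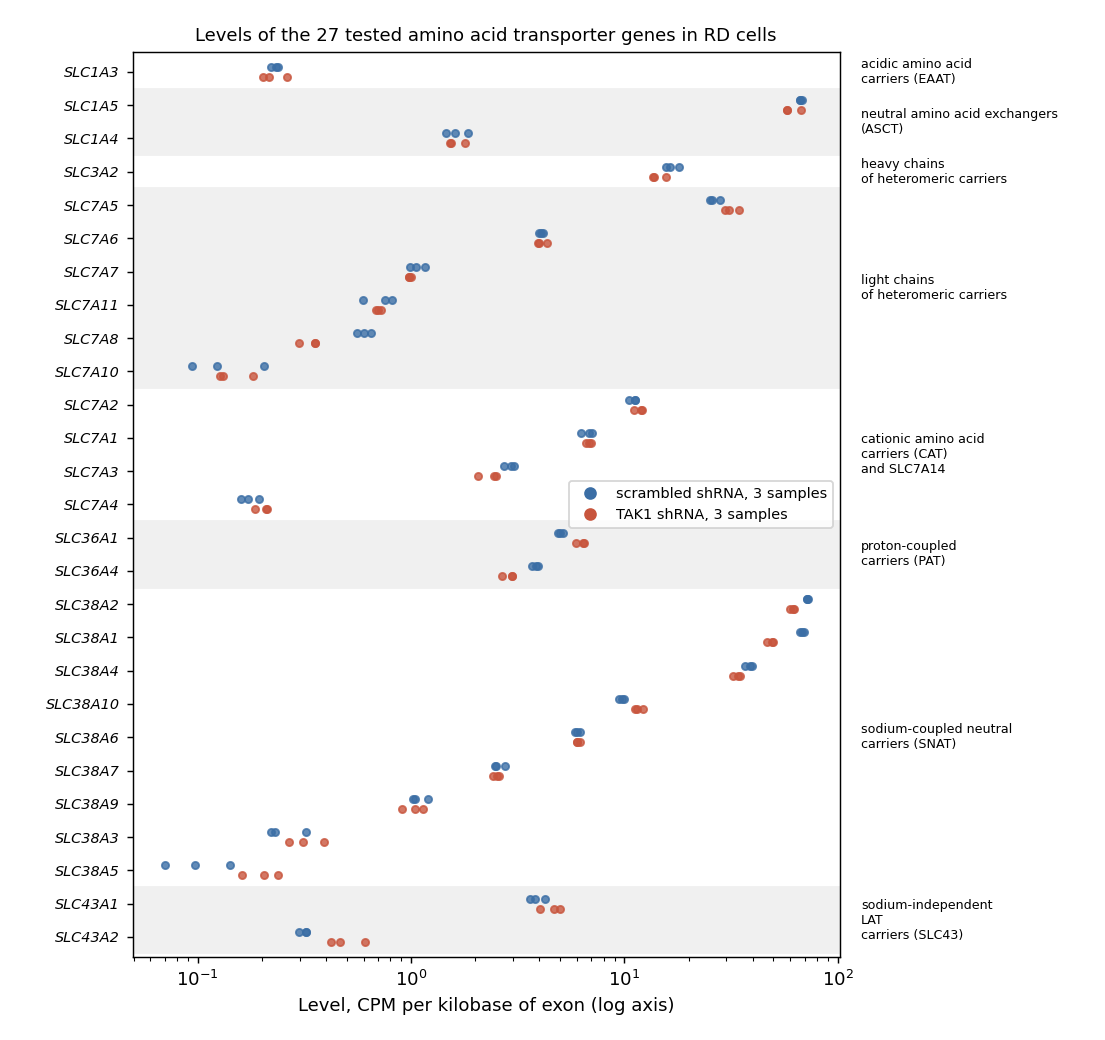
Level of each of the 27 tested amino acid transporter genes in CPM per kilobase of exon (log axis), grouped by role, with 1 point per sample for the 3 scrambled shRNA and the 3 TAK1 shRNA samples. SLC38A2, SLC38A1 and SLC1A5 lie highest, and for SLC38A1 the knockdown points lie apart from the control points.

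The remaining 13 members failed the expression filter, with at most 9 counts in any sample. SLC1A6, SLC36A2, SLC36A3, SLC38A11, SLC7A13 and SLC7A14 had 0 counts in all 6 samples, which allows up to 0.106 CPM in the library where 3 counts weigh most, scrambled shRNA replicate 1 (counting error only). SLC1A1, SLC1A2, SLC1A7, SLC38A8, SLC3A1, SLC43A3 and SLC7A9 had a few counts. This left 1 of the 5 glutamate carriers (EAAT) tested, SLC1A3. Among the heavy chains SLC3A2 alone was tested, since SLC3A1, which pairs with SLC7A9 in kidney and gut, had at most 3 counts.

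Transporter mRNAs differed in both directions between TAK1 knockdown and control cells. Calls used the thresholds of the study, an adjusted p under 0.05 together with a log2 fold change of 0.25 or more in either direction. Of the 27 tested members, 4 were called higher (14.8%) and 3 lower (11.1%), against 11.8% and 11.3% of all 15935 genes tested. The shares of the members were therefore near those of the whole table. The 4 higher genes were SLC43A2, SLC36A1, SLC7A5 and SLC38A10, and the 3 lower genes were SLC7A8, SLC38A1 and SLC36A4. A further 4 members, SLC38A2, SLC3A2, SLC38A4 and SLC1A5, passed the adjusted p with lower values but lay under the fold threshold. Together 11 members (40.7%) passed the adjusted p at any fold, against 33.3% of all genes. The median log2 fold change of the 27 members was -0.01, against 0.02 over all genes tested. CPM ranges of the groups did not overlap for 5 members with higher values and 7 with lower values in knockdown cells (18.5% and 25.9%), against 21.6% and 22.2% of all genes.

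**Figure D2:**
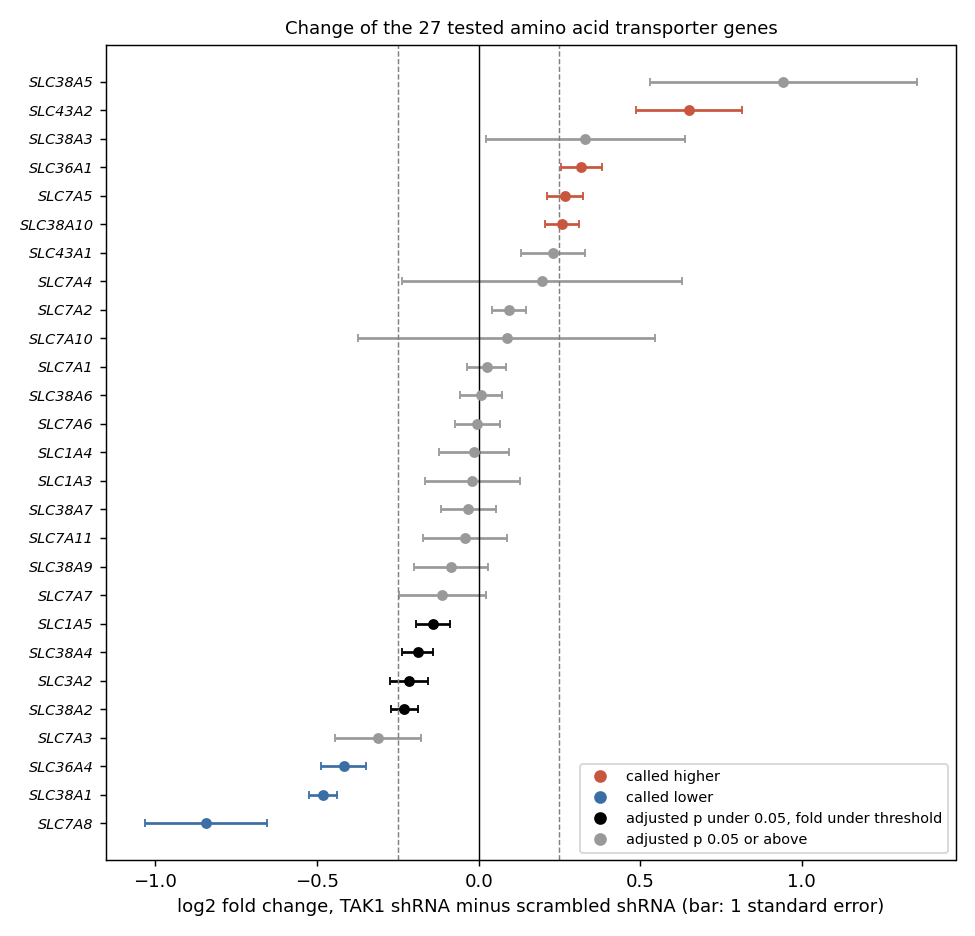
log2 fold change (TAK1 shRNA minus scrambled shRNA) of the 27 tested members with 1 standard error, 3 samples in each group. Dashed lines mark the fold threshold of 0.25 in either direction. Red marks the 4 members called higher, blue the 3 called lower and black the 4 that passed only the adjusted p.

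The promoters of the called members are shown where they hold a motif of a factor known to control amino acid transport genes. RefSeq promoters (GRCh38.p14, 250 bases before to 50 bases after an annotated start) were found for 31 of the 40 members, 53 promoters in all, and were searched on both strands for 3 motifs. These were the composite site TGATGNAAN bound by ATF4, the core TGACNNNGC of the antioxidant response element, and the E-box CACGTG bound by MYC and TFE factors, the last chosen after the values were seen. No match overlapped one of another motif. The E-box was found in 9 of the 53 member promoters (17.0%) and in 7.26% of all 35116 promoters. For the ATF4 site these shares were 11.3% and 3.61%, and for the antioxidant core 13.2% and 13.3%. Matches fell in a promoter of SLC36A1, SLC7A5, SLC38A1 and SLC7A8 among the called members, and promoters of SLC43A2, SLC38A10 and SLC36A4 held none of these letters. Further annotated promoters of SLC36A1, SLC38A1 and SLC7A8 held no match. Most members with a match were not called, and of all 27 tested members 7 were called. Over all genes tested, 11.8% were called higher and 11.3% lower. Of the 9 members with an E-box, SLC36A1, SLC7A5 and SLC7A8 were called, and SLC1A7 was not tested. Of the 6 with an ATF4 site SLC38A1 was called, and of the 7 with an antioxidant core SLC7A5. A link between motifs and calls was not tested. In the sequences below capitals mark the matches, and positions count from the annotated start as 1, with the base before it as -1. In SLC36A1, called higher, E-boxes begin at -43 and -8. In SLC7A5, called higher, an E-box begins at -130 and an antioxidant core at -2. In SLC38A1, called lower, an ATF4 site begins at -4, and in SLC7A8, also called lower, an E-box begins at -129. Each of the 4 is shown once, 5′ to 3′ on the strand of the gene, and the promoters lie at chr5:151447353-151447652 (plus strand), chr16:87869458-87869757, chr12:46266467-46266766 and chr14:23154344-23154643 (minus strand).
SLC36A1: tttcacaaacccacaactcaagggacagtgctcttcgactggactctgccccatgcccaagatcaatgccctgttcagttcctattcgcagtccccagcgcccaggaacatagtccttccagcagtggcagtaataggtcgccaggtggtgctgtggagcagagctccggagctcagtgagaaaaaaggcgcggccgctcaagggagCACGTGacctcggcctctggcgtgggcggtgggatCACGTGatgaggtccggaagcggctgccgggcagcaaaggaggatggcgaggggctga
SLC7A5: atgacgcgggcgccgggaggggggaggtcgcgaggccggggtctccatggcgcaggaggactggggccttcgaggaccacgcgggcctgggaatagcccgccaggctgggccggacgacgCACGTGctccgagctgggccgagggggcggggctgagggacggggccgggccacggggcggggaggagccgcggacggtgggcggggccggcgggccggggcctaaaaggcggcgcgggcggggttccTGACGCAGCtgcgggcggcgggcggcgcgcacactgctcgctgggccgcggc
SLC38A1: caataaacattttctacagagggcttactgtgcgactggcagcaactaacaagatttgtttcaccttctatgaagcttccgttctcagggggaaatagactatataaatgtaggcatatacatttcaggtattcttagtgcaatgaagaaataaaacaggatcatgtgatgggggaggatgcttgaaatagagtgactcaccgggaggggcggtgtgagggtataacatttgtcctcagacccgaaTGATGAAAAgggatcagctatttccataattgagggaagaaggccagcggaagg
SLC7A8: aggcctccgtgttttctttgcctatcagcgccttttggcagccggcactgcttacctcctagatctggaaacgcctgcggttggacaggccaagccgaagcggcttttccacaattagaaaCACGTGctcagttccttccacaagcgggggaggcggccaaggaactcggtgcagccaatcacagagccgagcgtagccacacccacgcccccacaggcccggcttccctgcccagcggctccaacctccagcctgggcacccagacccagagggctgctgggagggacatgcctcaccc

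Among the sodium-coupled neutral carriers SLC38A1 was called lower and SLC38A10 higher, and the abundant SLC38A2 and SLC38A4 passed the adjusted p with lower values. SLC38A1 (SNAT1), which imports glutamine and other small neutral amino acids, reached 696, 664 and 680.0 CPM in the control samples and 494, 467 and 500.4 CPM in the knockdown samples. The groups lay far apart relative to their spread. Its mean was 680.1 ± 15.8 CPM in control and 487 ± 17.6 CPM in knockdown samples (SD, n = 3), with a log2 fold change of -0.48 ± 0.043 (SE, edgeR, Benjamini-Hochberg adjusted p = 2.58e-09). SLC38A1 lies on chromosome 12 from 46183063 to 46270017 (minus strand, GENCODE 44, GRCh38, as for the positions that follow), and 2 other members follow it in the same cluster. SLC38A2 (SNAT2), the carrier best known for its induction by amino acid shortage, begins 88.2 kb away, and SLC38A4 (SNAT4) lies another 392 kb along. SLC38A2 stood at 465, 471 and 466 CPM in control samples and at 388, 402 and 405 CPM in knockdown samples. These ranges did not overlap, and its log2 fold change of -0.23 ± 0.042 (SE, adjusted p = 0.000107) lay just under the fold threshold, which it passed without TAK1 shRNA replicate 3 (-0.25). SLC38A4 stood at 152, 161 and 165 CPM in control samples and at 134, 141 and 144 CPM in knockdown samples, a log2 fold change of -0.19 ± 0.049 (SE, adjusted p = 0.00404).

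The 3 neighbours were compared within each sample. The ratio of SLC38A1 to SLC38A2, both per kilobase, was 0.973, 0.918 and 0.948 in control samples and 0.828, 0.755 and 0.803 in knockdown samples. All knockdown samples thus lay below all control samples, a difference of -0.25 on the log2 scale (two-sided exact permutation p = 0.1, the smallest that 3 against 3 allows). The ratio of SLC38A4 to SLC38A2 was 0.535 ± 0.0206 in control and 0.550 ± 0.00808 in knockdown samples (SD, n = 3), with overlapping ranges (exact permutation p = 0.3). In all, 9 such ratios were computed, and after Benjamini-Hochberg adjustment the exact permutation p was 0.129 for each of the 7 ratios whose groups did not overlap. The ratios were not planned in advance.

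SLC38A10, a member found mainly inside the cell (chromosome 17, 81244811 to 81295547), moved the other way. It reached 77.4, 78.9 and 74.4 CPM in control samples and 96.4, 90.5 and 89.0 CPM in knockdown samples, a log2 fold change of 0.26 ± 0.053 (SE, adjusted p = 0.000465). That value is close to the fold threshold, and it fell under it without scrambled shRNA replicate 3 (0.23) or TAK1 shRNA replicate 1 (0.22). SLC38A9, the lysosomal arginine sensor upstream of mTORC1, had a log2 fold change of -0.085 ± 0.115 (SE, adjusted p = 0.622). SLC38A7, a lysosomal exporter of glutamine and asparagine, had one of -0.032 ± 0.085 (SE), and SLC38A6 one of 0.0077 ± 0.066 (SE). SLC38A5 (SNAT5) had only 8 to 28 counts per sample. Its values did not overlap, at 0.281, 0.572 and 0.389 CPM in control samples and 0.958, 0.651 and 0.818 CPM in knockdown samples, and its log2 fold change of 0.94 ± 0.41 (SE) did not pass (adjusted p = 0.0831). SLC38A3, with 26 to 55 counts, did not pass either (adjusted p = 0.454). Summed per kilobase, the 11 SNAT genes stood at 198 ± 0.707 in control and 165 ± 2.65 CPM per kilobase in knockdown cells (SD, n = 3), or 56.5% and 52.4% of the level of all members.

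Among the heteromeric carriers the light chain SLC7A5 was called higher and SLC7A8 lower, while their heavy chain SLC3A2 passed only the adjusted p, with lower values. SLC7A5, the LAT1 light chain (chromosome 16, 87830023 to 87869507), reached 134, 122 and 120.2 CPM in control samples and 164, 141 and 148 CPM in knockdown samples. Every knockdown sample was above every control sample, with a log2 fold change of 0.27 ± 0.056 (SE, adjusted p = 0.000613). The gene fell under the fold threshold without scrambled shRNA replicate 2 (0.248) or 3 (0.24) or TAK1 shRNA replicate 1 (0.20), and passed the adjusted p in each of these fits. SLC3A2 encodes the heavy chain 4F2hc (CD98), which brings LAT1 and other light chains to the cell surface. It lies on chromosome 11 from 62856004 to 62888880, and it is given in full here because of this pairing, a choice made after the values were seen. SLC3A2 stood at 115, 105 and 100.5 CPM in control samples and at 100.1, 88.2 and 87.5 CPM in knockdown samples. The highest knockdown sample lay just below the lowest control sample. Its log2 fold change was -0.22 ± 0.060 (SE, adjusted p = 0.00632). It passed the fold threshold without scrambled shRNA replicate 3 (-0.26) or TAK1 shRNA replicate 1 (-0.28), while without scrambled shRNA replicate 1 it no longer passed the adjusted p (-0.16, adjusted p = 0.0707).

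Both genes were highest in replicate 1 of either group, and their ratio within a sample varied less than either value. The ratio of SLC7A5 to SLC3A2 per kilobase was 1.56, 1.57 and 1.60 in control samples and 2.20, 2.15 and 2.26 in knockdown samples, a difference of 0.48 on the log2 scale (exact permutation p = 0.1). The groups of both genes lay apart in opposite directions, so this separation was fixed by the single genes and its p adds nothing to them. The absolute ratio depends on the lengths used, with means of 0.733 and 1.02 when the longest transcripts are taken, whereas the difference between groups does not. The summed level of the 8 light chains relative to SLC3A2 was 1.98 ± 0.0443 in control and 2.64 ± 0.0558 in knockdown samples (SD, n = 3; exact permutation p = 0.1). SLC7A5 made up most of that sum, which was itself higher in every knockdown sample, so this separation was fixed as well.

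**Figure D3:**
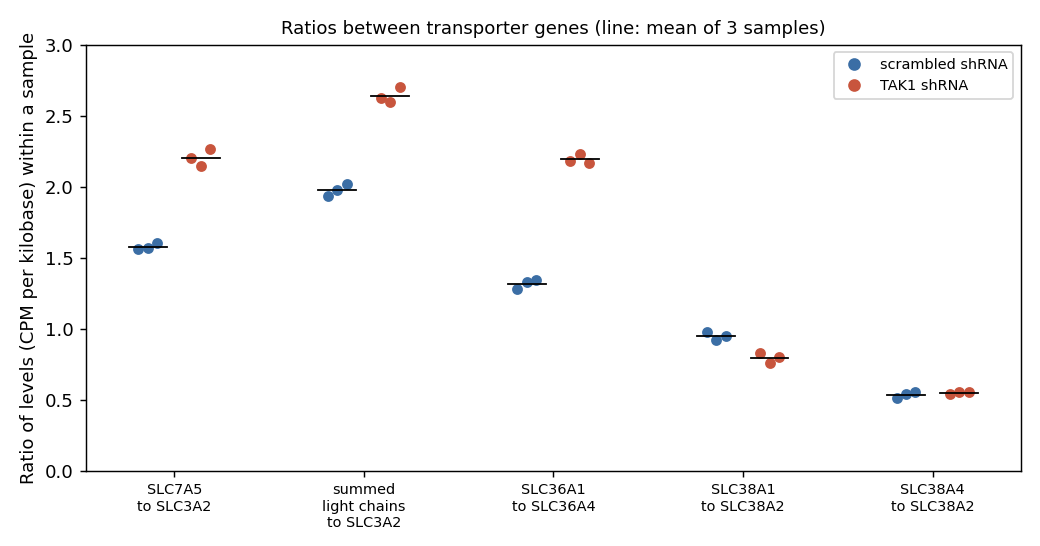
Ratios of the levels of transporter genes within each sample (CPM per kilobase), with 1 point per sample and a line at the mean of 3 samples. The ratios of SLC7A5 and of the summed light chains to SLC3A2 and of SLC36A1 to SLC36A4 lie higher in the TAK1 shRNA samples, SLC38A1 to SLC38A2 lies lower, and SLC38A4 to SLC38A2 overlaps between the groups.

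SLC7A8 (LAT2), a light chain that carries neutral amino acids of all sizes (chromosome 14, 23125295 to 23183674), had the most negative log2 fold change of the 27 tested members. It stood at 3.34, 3.87 and 3.60 CPM in control samples and at 2.12, 2.12 and 1.79 CPM in knockdown samples. Its mean was 3.61 ± 0.266 CPM in control and 2.01 ± 0.193 CPM in knockdown samples (SD, n = 3), with a log2 fold change of -0.84 ± 0.19 (SE, adjusted p = 0.00108), at 59 to 122 counts per sample. The neighbouring member SLC7A7, 296 kb away on chromosome 14, had a log2 fold change of -0.11 ± 0.13 (SE, adjusted p = 0.569). SLC7A6, like SLC7A7 an exchanger of cationic for neutral amino acids, stood at 30.9 CPM in both groups (log2 fold change -0.0036 ± 0.070 SE). SLC7A11, the cystine and glutamate exchanger xCT, had 5.77, 7.27 and 7.88 CPM in control samples and 6.77, 6.63 and 6.97 CPM in knockdown samples. The knockdown values lay inside the control range, and the log2 fold change was -0.042 ± 0.13 (SE, adjusted p = 0.845). SLC7A10 had 9 to 20 counts per sample, too few to resolve a change (log2 fold change 0.086 ± 0.46 SE).

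**Figure D4:**
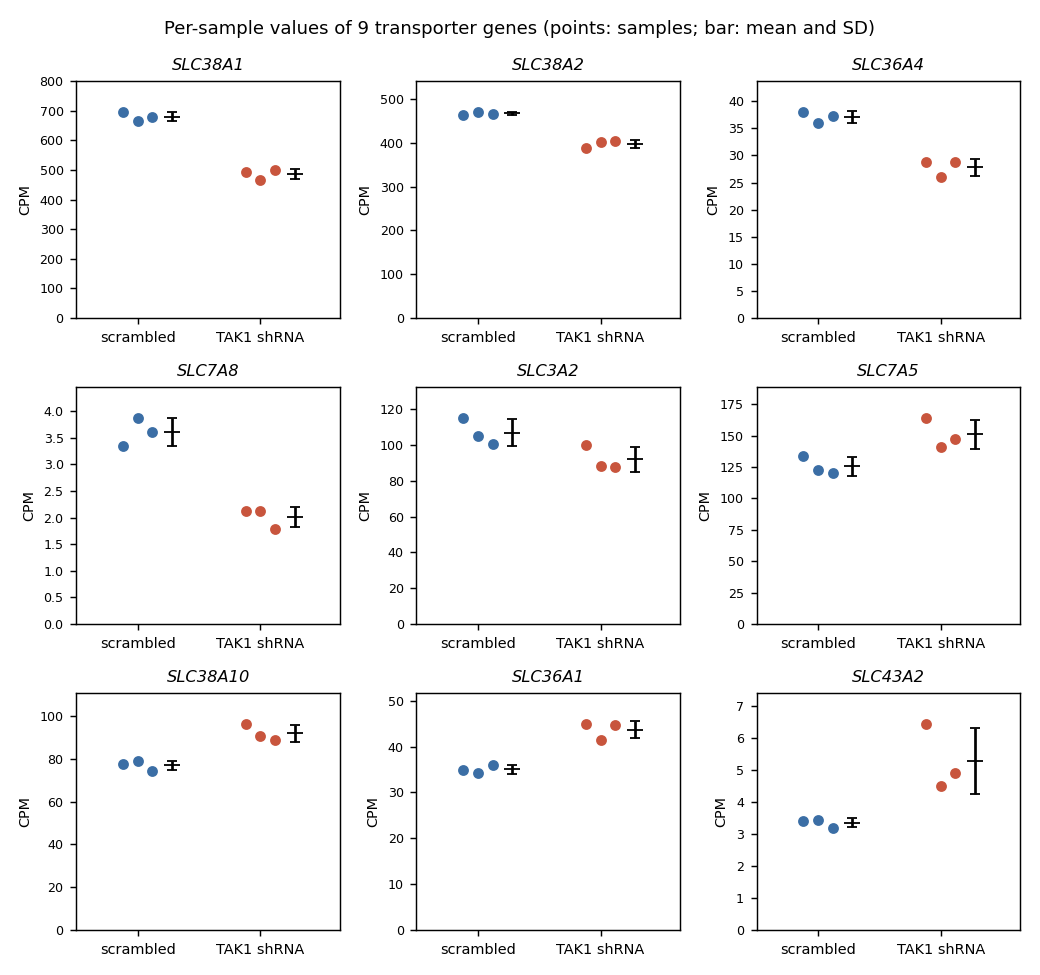
CPM of 9 transporter genes in each of the 3 scrambled shRNA and 3 TAK1 shRNA samples, with the mean and SD beside the points and each axis starting at 0. SLC38A1, SLC38A2, SLC36A4, SLC7A8 and SLC3A2 are lower in every knockdown sample, and SLC7A5, SLC38A10, SLC36A1 and SLC43A2 are higher.

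The proton-coupled carriers split into opposite directions. SLC36A1 (PAT1), which exports small amino acids from the lysosome, lies on chromosome 5 from 151437046 to 151492379. It stood at 35.0, 34.2 and 36.1 CPM in control samples and at 45.0, 41.5 and 44.7 CPM in knockdown samples, without overlap. The log2 fold change was 0.32 ± 0.065 (SE, adjusted p = 0.000392), and it stayed between 0.29 and 0.37 under all 14 alternatives. SLC36A4 (PAT4), a high-affinity carrier of proline and tryptophan on chromosome 11 from 93144174 to 93197991, stood at 38.02, 35.9 and 37.4 CPM in control samples and at 28.8, 25.9 and 28.7 CPM in knockdown samples. Its log2 fold change of -0.42 ± 0.069 (SE, adjusted p = 3.88e-05) stayed between -0.45 and -0.37. The ratio of SLC36A1 to SLC36A4 per kilobase was 1.28, 1.33 and 1.34 in control samples and 2.18, 2.23 and 2.17 in knockdown samples, the widest shift among the 9 ratios at 0.74 on the log2 scale (exact permutation p = 0.1). The groups of both genes lay apart in opposite directions, so their ratio had to separate, and its p adds nothing to the single genes. The summed level of the PAT genes was 8.85 ± 0.220 in control and 9.14 ± 0.447 CPM per kilobase in knockdown cells (SD, n = 3).

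In the SLC43 family of sodium-independent carriers, SLC43A2 (LAT4), which lets essential neutral amino acids leave the cell, rose from a low level. It lies on chromosome 17 from 1569268 to 1628886. It had 3.41, 3.43 and 3.18 CPM in control samples and 6.43, 4.47 and 4.91 CPM in knockdown samples, and TAK1 shRNA replicate 1 stood above the other 2. The log2 fold change was 0.65 ± 0.16 (SE, adjusted p = 0.00315), and it lay between 0.49 and 0.76 under all 14 alternatives. SLC43A1 (LAT3) stood at 13.7 ± 1.14 in control and 16.1 ± 1.75 CPM in knockdown cells (SD, n = 3), a log2 fold change of 0.23 that did not pass (SE 0.098, adjusted p = 0.0746). It passed both thresholds without scrambled shRNA replicate 1 (0.30) or TAK1 shRNA replicate 3 (0.30), and with scaling by library size alone (0.28). SLC43A3, a relative known to carry purine nucleobases, had at most 4 counts.

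Among the exchangers of neutral amino acids, SLC1A5 (ASCT2, chromosome 19, 46774883 to 46788594) carries glutamine. It reached 223, 223 and 226 CPM in control samples and 224, 192 and 193 CPM in knockdown samples. TAK1 shRNA replicate 1 lay within the control range, so the groups overlapped. The log2 fold change was -0.14 ± 0.053 (SE, adjusted p = 0.0413), and the adjusted p was above 0.05 in 5 of the 6 fits with 1 sample left out, TAK1 shRNA replicate 1 being the exception, and with upper-quartile or library-size scaling. SLC1A4 (ASCT1), a carrier of serine and alanine, had 11.4 ± 1.37 in control and 11.2 ± 1.05 CPM in knockdown cells (SD, n = 3). SLC1A3 (EAAT1), a glutamate carrier of astrocytes, had 4.90 ± 0.197 and 4.82 ± 0.669 CPM.

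The cationic amino acid carriers SLC7A1 and SLC7A2, which import arginine and lysine, had log2 fold changes of 0.025 ± 0.061 (SE, adjusted p = 0.798) and 0.094 ± 0.053 (SE, adjusted p = 0.189). SLC7A3 stood at 6.89, 6.19 and 6.65 CPM in control samples and at 5.54, 4.67 and 5.70 CPM in knockdown samples. These ranges were apart, but the log2 fold change of -0.31 ± 0.13 (SE) did not pass (adjusted p = 0.0749). SLC7A4 had 12 to 17 counts per sample. The summed level of these carriers was 20.8 ± 0.624 in control and 21.1 ± 0.977 CPM per kilobase in knockdown cells.

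Over all 40 members the summed level was 350.4 ± 2.97 CPM per kilobase in control and 316 ± 9.42 in knockdown cells (SD, n = 3). In the unnormalized libraries they summed to 2161 ± 12.1 CPM in control and 1960 ± 40.1 CPM in knockdown cells, and the ranges did not overlap. Among the most abundant members, SLC38A1 fell from 67.9 to 48.6 and SLC38A2 from 71.8 to 61.2 CPM per kilobase. Of the 27 tested members, 12 had log2 fold changes above 0 and 15 below, with a median of -0.01.

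Genes that sense, use or respond to amino acids were drawn from hand-written lists. The mTORC1 sensing list, in which the lysosomal Rag GTPases and their regulators report amino acid supply, had 7 of 38 tested genes called higher (18.4%) and 2 lower (5.26%), against 11.8% and 11.3% of all genes. These 9 calls became 8 with RLE normalization, no filter on low counts, DESeq2, limma voom or a replicate block, and ran from 7 (without TAK1 shRNA replicate 1) to 11 (without TAK1 shRNA replicate 2) with 1 sample left out. Among the higher genes were the leucine-sensing family member SESN1, with a log2 fold change of 0.56 ± 0.13 (SE, adjusted p = 0.0012), and the GTPase RRAGD at 0.46. Called lower were the kinase MTOR itself at -0.30 and its activator RHEB at -0.26, and RHEB fell under the fold threshold without scrambled shRNA replicate 3 (-0.23) or TAK1 shRNA replicate 1 (-0.24), and with upper-quartile (-0.24) or library-size scaling (-0.21).

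In the list for the amino acid starvation response run by GCN2 and ATF4, 3 of 28 tested genes were called higher and 3 lower (10.7% each). The shares over all genes were 11.8% and 11.3%. Higher were the proline synthesis enzymes ALDH18A1, at a log2 fold change of 0.50, and PYCR1, at 0.34, and the mTORC1 inhibitor DDIT4, at 0.48. Lower were EIF2S1, the target of the GCN2 kinase, at -0.39, the secreted STC2 at -0.32 and the mitochondrial folate enzyme MTHFD2 at -0.29, which dropped under the fold threshold without TAK1 shRNA replicate 1 (-0.23) or with scaling by library size alone (-0.24). The median of the list was -0.0050.

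For cystine use and glutathione synthesis, 1 of 22 tested genes was called higher (4.55%) and 2 lower (9.09%). Over all genes these shares were 11.8% and 11.3%. GCLM, the modifier subunit of the first enzyme of glutathione synthesis, fell from 66.9 ± 2.61 to 35.96 ± 1.01 CPM (SD, n = 3), that is, by a log2 fold change of -0.89 ± 0.060 (SE, adjusted p = 2.05e-11). The quinone reductase NQO1 fell by 0.47 on the log2 scale, and CTH, which makes cysteine from cystathionine, rose by 0.50. SLC7A11 (xCT) and its heavy chain partner SLC3A2 belong to this list and are described above.

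Of the 20 tested genes for the use of glutamine, branched-chain amino acids and arginine, 4 were called lower (20%) and 2 higher (10%), with a median log2 fold change of -0.10. The arginine synthesis enzyme ASS1 fell from 1495 ± 2.90 to 1028 ± 15.2 CPM (SD, n = 3), that is, by a log2 fold change of -0.54. BCAT1, the cytosolic aminotransferase that acts on leucine, had one of -0.35. BCKDHB, a subunit of the enzyme that commits branched-chain keto acids to breakdown, rose by 0.49. Of the other subunits on this list, BCKDHA had at most 10 counts in any sample and was not tested. DBT had a log2 fold change of -0.094 (edgeR, adjusted p = 0.266). NOS3 rose by 1.62 on the log2 scale from a mean of 0.165 CPM, and lost its call with no filter on low counts, with DESeq2 (adjusted p not given) and without scrambled shRNA replicate 1 (1.67) or 3 (1.36) or TAK1 shRNA replicate 1 (1.34).

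Amino acid carriers of other families gave 2 of 22 tested genes higher and 2 lower (9.09% each), against 11.8% and 11.3% of all genes. The mitochondrial glutamate carrier SLC25A22 rose from 64.2 ± 0.559 to 92.6 ± 4.41 CPM (SD, n = 3), that is, by a log2 fold change of 0.53, and the glycine carrier SLC6A9 rose by 0.71. SLC15A4, a lysosomal carrier of histidine, fell by 0.53, and the mitochondrial ornithine carrier SLC25A15 fell by 0.35, a call lost without scrambled shRNA replicate 2 (-0.32) or TAK1 shRNA replicate 2 (-0.31).

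**Figure D5:**
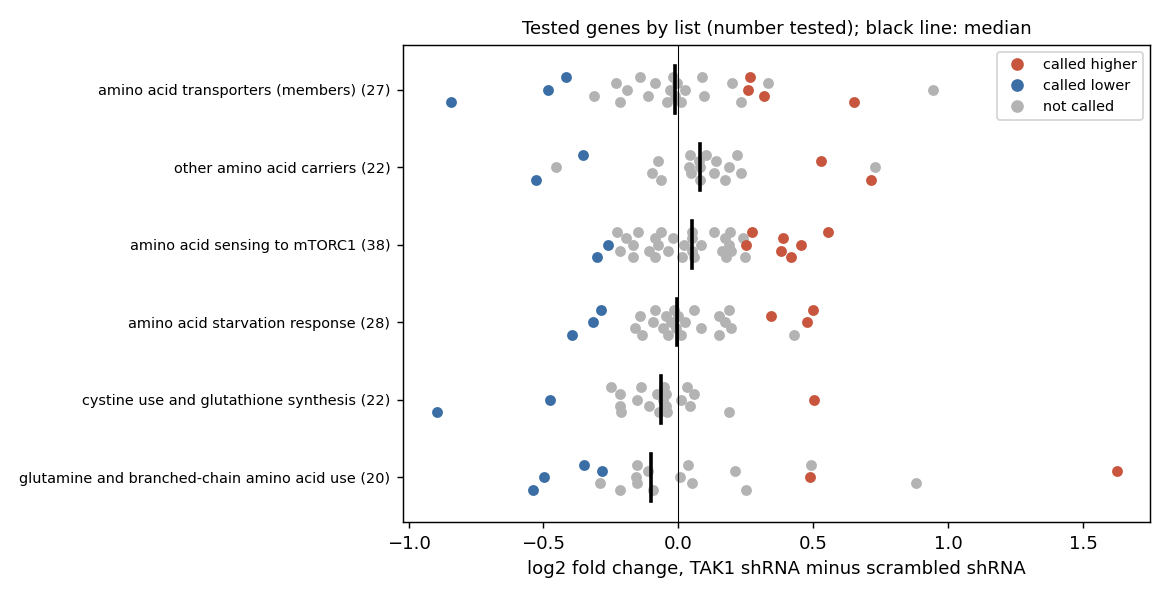
log2 fold change of every tested gene in the transporter families and in 5 related lists, with the number tested in brackets and a black line at the median of each list. Colours mark genes called higher or lower. Medians lie between -0.10 and 0.080.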

How the data were processed

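Raw counts of reads per gene symbol were deposited by the authors without normalization for 3 scrambled shRNA and 3 TAK1 shRNA samples of RD cells. Per the study's methods, poly(A) RNA was sequenced as read pairs, adaptors and low-quality reads were removed, and STAR was used to align to GRCh38. The counting program, annotation release and strand use are not given in the sources used here, so reads of a gene and of an overlapping antisense gene cannot be told apart. This concerns SLC7A5, SLC38A10 and SLC1A5 among the genes with an adjusted p under 0.05, and SLC7A8 shares exon sequence with a gene on the same strand. SLC7A5 also has the copy SLC7A5P1, with 37 to 72 counts.

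Differential expression was computed here with edgeR 4.0.16 in R 4.3.3 over all 58735 rows: default expression filter (15935 genes), trimmed mean of M-values, quasi-likelihood test without covariates, and Benjamini-Hochberg adjustment over all genes tested. Standard errors (SE) were taken as the absolute fold change on the log2 scale over √F. DESeq2 1.42.0, limma 3.58.1 (voom), 3 normalizations, 2 filters, 2 fold thresholds, the replicate number as a term and leaving out each sample were alternatives. The tools were checked on simulated counts. Total counts ran from 28839898 to 34469323, and the common biological coefficient of variation was 5.67%. Exon lengths came from GENCODE 44, in which all 40 symbols matched, and promoters from RefSeq. The members and lists were chosen with earlier results of these data known. Values in every sample were planned for called members and the 5 highest levels per length. They are also given for SLC3A2, SLC38A5, SLC7A3 and SLC7A11, which are neither and were not part of that plan. In the lists, up to 3 called genes in each direction are named, and some items are not reported here. Replicates differed from each other by more than counting noise (chi-square per degree of freedom 2.88 to 8.65).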

Additional observations from a re-analysis of the deposited data

How the results depend on the processing

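Under 14 alternatives, the 7 called members kept their direction in every refit. Some members that were not called changed sign, such as SLC7A6 in 6 refits and SLC1A4 in 5. A value could also cross the adjusted p alone, as SLC1A5 did. The call, which needs the adjusted p and the fold threshold of 0.25 together, was the same in 365 of the 376 refitted member values. It was lost in 5 (SLC7A5 and SLC38A10) and gained in 6 (SLC43A1, SLC3A2 and SLC38A2). SLC38A1, SLC36A4, SLC7A8, SLC36A1 and SLC43A2 were called in every fit that kept this fold threshold. With 1 sample left out, the number of members called higher ran from 2 to 5 and the number called lower from 3 to 4. The 2 came without scrambled shRNA replicate 3 or TAK1 shRNA replicate 1. At a log2 fold threshold of 0.5, 1 member was called higher and 1 lower, and with no fold threshold 4 and 7. With no fold threshold, the calls were 15 in the mTORC1 sensing list (9 at 0.25), 10 in the starvation response list (6), 8 in the glutathione list (3) and 11 in the glutamine and branched-chain list (6). At 0.5 they were 1 in the sensing list and 2 in the glutamine list. The starvation response list then had 0 by edgeR, also 0 at an unadjusted p under 0.05, 0 by DESeq2 and 1 by limma voom. The glutathione list ran from 3 to 5 with 1 sample left out, with 5 without TAK1 shRNA replicate 1 or 3.

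Scaling by library size alone moved the median of all genes from 0.02 to 0.07 and the share of calls that were higher from 51.0% to 62.9%, with 5 members higher and 3 lower. Over all genes tested, samples with the same replicate number were weakly alike. The correlations of their deviations from the group means were 0.0919, 0.0563 and 0.0353, all above 0. Scrambled shRNA replicate 3 correlated better with TAK1 shRNA replicate 2 (0.0492). With a replicate block 4 members were called higher and 3 lower. Depth limits the members with few counts, such as SLC38A5, SLC7A10 and SLC7A4, whose standard errors exceed 0.4 on the log2 scale.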

Other observations

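Rows next to the families but outside the rule gave values of their own. TMEM104, which RefSeq now names SLC38A12, stood at 46.8 ± 0.882 CPM in control and 46.0 ± 4.34 CPM in knockdown cells (SD, n = 3), with a log2 fold change of -0.026 ± 0.068 (SE, adjusted p = 0.813, edgeR). SLC7A6OS, which overlaps SLC7A6 on the opposite strand, stood at 7.42, 6.60 and 7.10 CPM in control samples and at 5.95, 5.80 and 6.03 CPM in knockdown samples. Its groups did not overlap, and its log2 fold change of -0.25 ± 0.12 (SE) did not pass (adjusted p = 0.133). SLC7A5P1, a pseudogene copy of SLC7A5, had a log2 fold change of -0.18 ± 0.26 (SE, adjusted p = 0.654).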
